A study of Homo sapiens with 6 samples.

Results

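Kinesins are motor proteins that use ATP to move along microtubules or to take them apart at their ends. Genes were taken as kinesins where the symbol was KIF or KIFC followed by a number and at most a letter from A to C, which gave 42 of the 57773 genes in the table. They were divided by known role into 14 mitotic kinesins, 17 transport kinesins and 11 others. 41 of the 42 had enough counts to be tested, and KIF2B was the exception. Its count was 0 in all 6 libraries, where 3 counts, the most that a count of 0 allows at this depth, would be 0.032 to 0.0352 RPKM in the libraries labelled knockdown and 0.0479 to 0.0519 RPKM in those labelled control. RPKM is a read count scaled by exon length and by the library's total.

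The cells were HEK293, an established line derived from human embryonic kidney that divides continuously in culture. 3 libraries were labelled as knockdown of TRDMT1, an RNA cytosine methyltransferase also called DNMT2, and 3 were labelled as its control; the labels give no clone, agent, culture time or batch for either group. Ribosomal RNA was removed from both, and per the labels' protocols both went through an RNA methylation (bisulfite) kit; it is not stated whether the counts come from RNA so treated. The libraries labelled knockdown held 36455950 to 40088993 counts and those labelled control 24776040 to 26802182 counts. TRDMT1 itself had 0.58, 0.58 and 0.58 RPKM in the libraries labelled knockdown, against 0.36, 0.36 and 0.28 RPKM in those labelled control. That is a log2 fold change of 0.61 ± 0.21 (SE; adjusted p = 0.0705 by edgeR's quasi-likelihood test), so the level of the targeted gene goes against the label. The second names that the table gives its columns also point the opposite way to the sample titles. For these reasons the groups are called by their labels throughout, and every direction below rests on those labels.

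In a dividing cell, mitotic kinesins push the spindle poles apart, move and align chromosomes, and build the midzone and midbody between the daughter cells. Transport kinesins carry vesicles, organelles, protein complexes and RNA, most of them toward the plus ends of microtubules at the cell's edge. The genes of many mitotic kinesins are kept low early in the cell cycle and activated late in it, by complexes that bind a short element called CHR and by NF-Y, which binds CCAAT boxes.

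Of the 41 kinesins tested, 9 were lower and 2 were higher in the libraries labelled knockdown at an adjusted p below 0.05, and 30 did not pass. Over all 17805 genes tested, 14.7% were called lower and 9.29% higher, or 24% in either direction; among kinesins it was 22% lower and 4.88% higher. Counts by role follow, and the roles were set with earlier results of these data known. Among the mitotic kinesins 6 of 13 were lower (46.2%) and 1 was higher (7.69%). Among the transport kinesins 3 of 17 were lower (17.6%) and none was higher by edgeR. DESeq2 called 2 of the transport kinesins higher, and 13.8% of all genes. Among the others none of 11 was lower and 1 was higher (9.09%). Without control replicate 2, described below, KIF2A and KIF26A were lower and 2 of the others were higher (18.2% each, beside 25.6% and 22.9% of all genes). The median log2 fold change was -0.33 for mitotic, 0.22 for transport and -0.03 for other kinesins, beside -0.04 for all genes. These shares describe the family and are not a test of it. Of the called members 7 were at least 2-fold lower and KIF4B alone at least 2-fold higher, beside 7.99% and 3.12% of all genes.

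Other measurements move with these results. Control replicate 2 stood apart. Its TMM scaling factor was 0.812, against 0.997 to 1.07 in the other 5 libraries, and 2.51% of its counts fell on processed pseudogenes, against 0.895% to 1.16%. It had the lowest level of the 3 control libraries in 32 of 41 kinesins (78.0%; 59.8% of all genes tested), at a median of 0.525 times the mean of the other 2 controls. Across replicates, the coefficient of variation of a kinesin had a median of 6.41% for the label knockdown, against 36.4% for the label control. Without this library 14 kinesins were lower and 8 higher, all 11 calls among them, beside 25.6% and 22.9% of all genes. With composition and length trends, described below, removed as well, 16 were lower and 8 higher, beside 23.7% and 23.4% of all genes. With the replicate number as a block, 8 were lower and 1 higher (10.5% and 6.21% of all genes).

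Most markers of other cell types were low, but not all were at 0. Of the blood cell markers, CD14 had 0.64 to 0.89 RPKM over the 6 libraries, and PTPRC was at 0 in all but 1 control library. The 10 markers of the embryonic kidney line summed to 612.7 to 634.1 RPKM in the libraries labelled knockdown and to 703.5 to 753.6 RPKM in those labelled control, and none was called. When control replicate 2 was left out, 3 were higher and 3 lower (30% each, beside 22.9% and 25.6% of all genes). With composition and length trends removed only KRT8 was called, lower at -0.55 (adjusted p = 0.0267, edgeR). The 6 fibroblast and muscle markers summed to 16.63 to 18.36 RPKM in the libraries labelled knockdown, against 4.69 to 12.53 RPKM in those labelled control. Of 5 tested, 2 (ACTA2 and DES) were higher and 1 (LUM) was lower. 3 endothelial markers summed to 0.61 to 0.73 RPKM in the libraries labelled knockdown, against 0.15 to 0.42 RPKM in those labelled control, and CDH5 was at 0 in all 6. KDR had 0.71, 0.57 and 0.66 RPKM in the libraries labelled knockdown, against 0.09, 0.4 and 0.13 RPKM in those labelled control; it was not called (adjusted p = 0.119, edgeR), but was called higher without control replicate 2 (2.51; adjusted p = 2.83e-05, edgeR). 4 hepatocyte markers summed to 0.31 to 0.38 RPKM in the libraries labelled knockdown, against 0.04 to 0.19 RPKM in those labelled control. Only ALB of these was tested, and it was not called (1.75, adjusted p = 0.0515, edgeR). ALB was called higher with composition and length trends removed (2.11, adjusted p = 0.0339, edgeR) and without control replicate 2 (1.61, adjusted p = 0.0463, edgeR). The part of these markers in the kinesin results was not tested.

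The coding sequences differ in A content. The fold changes moved with A content of the longest transcript, described below. The most reduced kinesins had coding sequences rich in A, and several that were not called had few A. The match is loose: KIF27 (36.0% A), KIF3A (35.5%) and KIF2A (34.4%) were not called, and KIF5A (27.9%) was called lower. KIF4B (32.9%) was called higher, on few counts. 120 coding bases from the middle of the coding sequence are printed for 2 A-rich reduced members and 2 A-poor ones that were not called, chosen to show the range, from GENCODE 29 transcripts, 5′ to 3′, with every A in capitals. The KIF20B stretch (coding bases 2671 to 2790 of 5460, on chromosome 10) has 53 A, or 44.2%, and the KIF18A stretch (1288 to 1407 of 2694, on chromosome 11) also has 53. The KIF18B stretch (1219 to 1338 of 2556, on chromosome 17) has 29 A, or 24.2%, and the KIF22 stretch (938 to 1057 of 1995, on chromosome 16) has 23, or 19.2%.
KIF20B: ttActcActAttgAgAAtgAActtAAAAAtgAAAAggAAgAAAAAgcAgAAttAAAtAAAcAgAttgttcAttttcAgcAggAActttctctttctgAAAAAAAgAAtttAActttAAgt
KIF18A: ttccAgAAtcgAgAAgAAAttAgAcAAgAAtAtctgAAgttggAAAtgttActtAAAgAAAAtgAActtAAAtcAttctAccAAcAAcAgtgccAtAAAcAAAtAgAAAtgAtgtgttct
KIF18B: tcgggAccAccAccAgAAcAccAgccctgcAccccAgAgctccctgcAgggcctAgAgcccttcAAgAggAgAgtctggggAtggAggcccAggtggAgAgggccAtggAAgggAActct
KIF22: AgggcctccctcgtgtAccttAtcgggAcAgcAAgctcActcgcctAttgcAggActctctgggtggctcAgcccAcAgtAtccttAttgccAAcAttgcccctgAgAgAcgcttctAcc
Over the whole coding sequence A made up 40.1% in KIF20B, 36.3% in KIF18A, 21.7% in KIF18B and 23.3% in KIF22. KIF18A and KIF18B, which share a family number, are thus far apart in A content.

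Over the longest transcript, A content had a median of 31.5% in mitotic, 26.4% in transport and 24.4% in other kinesins, and 25.9% in all genes. Spearman's rho between log2 fold change and A content was -0.548 over the 41 kinesins and -0.413 over 17302 genes with a known composition. It was -0.808 over the 13 mitotic and -0.52 over the 17 transport kinesins. The genes share libraries, so these are descriptions without a p. When smooth trends over base composition and transcript length, fitted on all genes, were taken out, rho over the kinesins was -0.141 and over the mitotic kinesins -0.555. In that fit 6 kinesins were lower and 3 higher (over all genes 11.1% lower and 9.09% higher). KIF20B, KIF14, KIF18A, KIF15, KIF21A and KIF5A remained lower, KIF24 and KIF4B remained higher, KIF11, KIF23 and KIF5B were no longer called, and KIF27, a relative of KIF7, was called higher (0.96 ± 0.16, against -0.16 ± 0.18 as fitted). Exons of a gene on the opposite strand cover 13.1% of those of KIF27. Whether base composition has a part in the fold changes beyond moving with them was not tested.

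**Figure D1:**
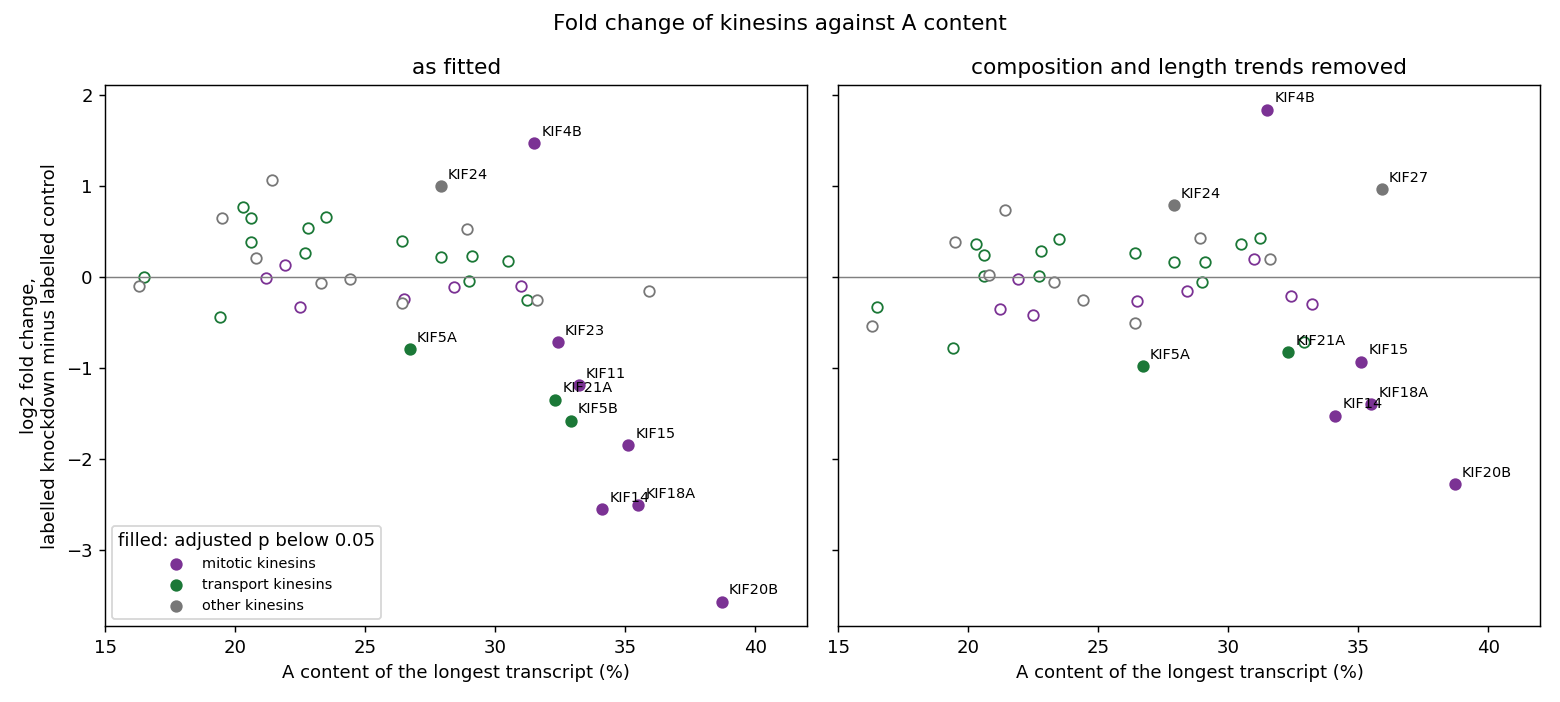
Log2 fold change (labelled knockdown minus labelled control) of the 41 tested kinesins against the A content of the longest transcript in percent, as fitted on the left and with composition and length trends removed on the right; filled points have an adjusted p below 0.05 and are named. On the left the most A-rich kinesin, KIF20B, lies lowest at -3.56, and on the right it lies at -2.28.

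Motifs known from late cell-cycle genes were searched for in the promoters. 250 bases before the start site are printed for KIF20B, the most reduced member, for KIF18A, which holds both motifs, and for KIF20A, the family-number partner of KIF20B whose RNA was not called. They are RefSeq sequences of GRCh38.p14, 5′ to 3′ on the gene's strand, with TTTGAA (the core of the CHR element) and CCAAT on either strand in capitals. They lie at chr10:89701340-89701589 on the plus strand, chr11:28108157-28108406 on the minus strand and chr5:138178862-138179111 on the plus strand.
KIF20B: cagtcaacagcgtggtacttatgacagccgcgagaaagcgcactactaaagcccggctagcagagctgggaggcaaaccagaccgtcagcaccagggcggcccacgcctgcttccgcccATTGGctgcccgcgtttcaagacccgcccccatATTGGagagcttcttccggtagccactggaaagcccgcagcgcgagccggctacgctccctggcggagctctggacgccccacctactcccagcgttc
KIF18A: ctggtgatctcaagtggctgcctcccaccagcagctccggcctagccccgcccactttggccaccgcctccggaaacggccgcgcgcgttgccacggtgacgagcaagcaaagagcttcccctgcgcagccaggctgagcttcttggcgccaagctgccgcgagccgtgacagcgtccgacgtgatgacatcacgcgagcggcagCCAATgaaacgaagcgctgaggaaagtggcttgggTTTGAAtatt
KIF20A: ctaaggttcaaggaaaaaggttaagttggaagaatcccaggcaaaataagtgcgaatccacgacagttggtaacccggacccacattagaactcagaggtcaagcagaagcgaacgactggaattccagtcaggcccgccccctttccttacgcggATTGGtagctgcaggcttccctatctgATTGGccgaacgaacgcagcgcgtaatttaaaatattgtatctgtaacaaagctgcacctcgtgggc
KIF20B and KIF20A each hold 2 CCAAT boxes and no TTTGAA, and KIF18A holds 1 of each, the TTTGAA close to the start. The bases just after the RefSeq start were found near the start of a GENCODE 29 transcript of KIF18A and of KIF20A, but of none of KIF20B, so its window rests on the RefSeq start alone. KIF20B and KIF20A thus have the same counts of both motifs.

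Of the 42 kinesins, 34 matched a RefSeq promoter, and motifs were counted in the 250 bases before a start. TTTGAA on either strand was present in 5 of 14 mitotic (35.7%), 1 of 12 transport (8.33%) and 0 of 8 other kinesins, against 16.1% of all genes with a promoter. CCAAT on either strand was present in 11 of 14 mitotic (78.6%), 4 of 12 transport (33.3%) and 3 of 8 other kinesins (37.5%), against 37% of all genes. GGGCGG, the GC box, was in 12 of 14 mitotic (85.7%) and in all 12 transport and 8 other kinesins, against 46.2% of all genes. TTTGAA was in KIF11, KIF15, KIF18A and KIF23, which were called lower, and in KIF4A, which was not. Its transport member was KIF5B, which was called lower. KIF20B, KIF14 and KIF21A were called lower too but held no TTTGAA, and KIF5A matched no promoter. The share of calls among all genes with TTTGAA was not computed. A match is a match of letters and no evidence of binding.

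KIF20B, KIF14, KIF18A and KIF15 were the mitotic kinesins with the greatest reductions, from 3.59-fold to 11.8-fold. KIF20B, a plus-end motor needed to complete cytokinesis (ENSG00000138182, chromosome 10), had 0.80, 0.91 and 0.93 RPKM in the libraries labelled knockdown, against 11.43, 4.94 and 12.15 RPKM in those labelled control. All libraries labelled knockdown were low and the groups lay far apart, also from the low control replicate 2. The counts behind these levels were 207, 239 and 267 in the libraries labelled knockdown, against 2155, 873 and 2320 in those labelled control. The log2 fold change was -3.56 ± 0.28 (SE; adjusted p = 0.000596, edgeR), 11.8-fold lower, the largest drop in the family. It was -2.28 ± 0.20 with composition and length trends removed (adjusted p = 0.00186, edgeR).

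KIF18A, which damps the movements of chromosomes by acting at the plus ends of kinetochore microtubules (ENSG00000121621), had 0.73, 1.04 and 0.91 RPKM in the libraries labelled knockdown, against 5.14, 3.32 and 5.17 RPKM in those labelled control. The groups did not overlap. It was 5.68-fold lower, at a log2 fold change of -2.51 ± 0.19 (adjusted p = 0.000495, edgeR) and of -1.39 ± 0.15 with the trends removed (adjusted p = 0.00291, edgeR). KIF15, which acts beside KIF11 to keep the spindle bipolar (ENSG00000163808), had 2.24, 2.12 and 1.97 RPKM in the libraries labelled knockdown, against 6.80, 6.67 and 6.52 RPKM in those labelled control. Here control replicate 2 lay with the other controls and the groups were well apart. The log2 fold change of KIF15 was -1.84 ± 0.15 (adjusted p = 0.000602, edgeR) and -0.93 ± 0.16 with the trends removed (adjusted p = 0.0124, edgeR). KIF20B, KIF18A and KIF15 were called lower under all 19 alternative settings tried.

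KIF14, a midbody kinesin that binds PRC1 and citron kinase (ENSG00000118193), had 1.24, 1.5 and 1.38 RPKM in the libraries labelled knockdown, against 9.13, 2.45 and 10.73 RPKM in those labelled control. The groups did not overlap, but control replicate 2 lay closer to the libraries labelled knockdown than to the other controls. Its log2 fold change was -2.55 ± 0.44 (adjusted p = 0.00868, edgeR) and -1.52 ± 0.35 with the trends removed (adjusted p = 0.0278, edgeR). The call was lost without knockdown replicate 1 (adjusted p = 0.0546, edgeR) or 3 (adjusted p = 0.0508, edgeR). Such losses were common over all genes. Calls fell from 4267 to 1246, 1315 and 1191 without knockdown replicates 1, 2 and 3, and to 2044 without control replicate 1. This applies to every call below that was lost in those fits.

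The best-known mitotic motors were reduced less and rested on controls 1 and 3. KIF11, which slides antiparallel microtubules apart to separate the poles (ENSG00000138160), had 17.32, 17.62 and 18.05 RPKM in the libraries labelled knockdown, against 43.55, 20.48 and 45.57 RPKM in those labelled control. Control replicate 2 was only just above the libraries labelled knockdown. The log2 fold change was -1.19 ± 0.22 (adjusted p = 0.0115, edgeR), but -0.30 ± 0.18 with the trends removed (adjusted p = 0.274, edgeR), and the call was also lost without any single library labelled knockdown or without control replicate 1 (adjusted p 0.0596 to 0.0651, edgeR). Without control replicate 2 it was -1.40.

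KIF23, the motor of centralspindlin, which bundles the midzone (ENSG00000137807), had 19.04, 19.53 and 19.22 RPKM in the libraries labelled knockdown, against 33.00, 17.60 and 35.09 RPKM in those labelled control. The groups overlapped, and control replicate 2 lay below all 3 libraries labelled knockdown. The log2 fold change was -0.71 ± 0.19 (adjusted p = 0.0335, edgeR) and -0.21 ± 0.14 with the trends removed (adjusted p = 0.313, edgeR). The call was lost without any single library other than control replicate 2 (adjusted p 0.0602 to 0.14, edgeR).

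6 mitotic kinesins did not pass the test, among them those with the highest levels. KIF22, a chromokinesin that pushes chromosome arms outward, had 38.65, 39.63 and 40.07 RPKM in the libraries labelled knockdown, against 32.67, 32.61 and 29.24 RPKM in those labelled control. The RPKM groups did not overlap, yet on the TMM scale its log2 fold change was 0.13 ± 0.15 (adjusted p = 0.533, edgeR). KIF2C, or MCAK, which takes microtubules apart at centromeres, had 37.36, 36.22 and 36.64 RPKM in the libraries labelled knockdown, against 42.27, 34.01 and 39.36 RPKM in those labelled control. KIF20A, which brings the chromosomal passenger complex to the midzone, had 34.14, 33.77 and 32.98 RPKM in the libraries labelled knockdown, against 40.19, 13.26 and 46.76 RPKM in those labelled control. Control replicate 2 was the low value in both, and the groups overlapped. Their log2 fold changes were -0.24 ± 0.11 for KIF2C and -0.11 ± 0.34 for KIF20A (adjusted p = 0.138 and 0.839, edgeR). Without control replicate 2 KIF2C and KIF20A were called lower, and KIF22 was called higher (0.28; adjusted p = 0.0206, edgeR). The other 3, the midzone motor KIF4A, KIF18B of astral microtubule ends and the minus-end motor KIFC1, had log2 fold changes from -0.33 to -0.01.

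The single mitotic kinesin called higher rests on few counts. KIF4B, a near copy of KIF4A, had 0.12, 0.11 and 0.07 RPKM in the libraries labelled knockdown, against 0.03, 0.03 and 0.04 RPKM in those labelled control. These are 19, 18 and 13 reads in the libraries labelled knockdown, against 3, 3 and 5 reads in those labelled control. The log2 fold change was 1.47 ± 0.40 (adjusted p = 0.0385, edgeR), and DESeq2 did not call it (adjusted p = 0.0639). Reads of KIF4A and KIF4B can be hard to tell apart, so its level is uncertain. Of the 6 ways to leave out 1 library, the call held when control replicate 2 was left out; without knockdown replicate 1 or 2 KIF4B did not pass the filter on low counts, and without any of the other 3 it did not pass.

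**Figure D2:**
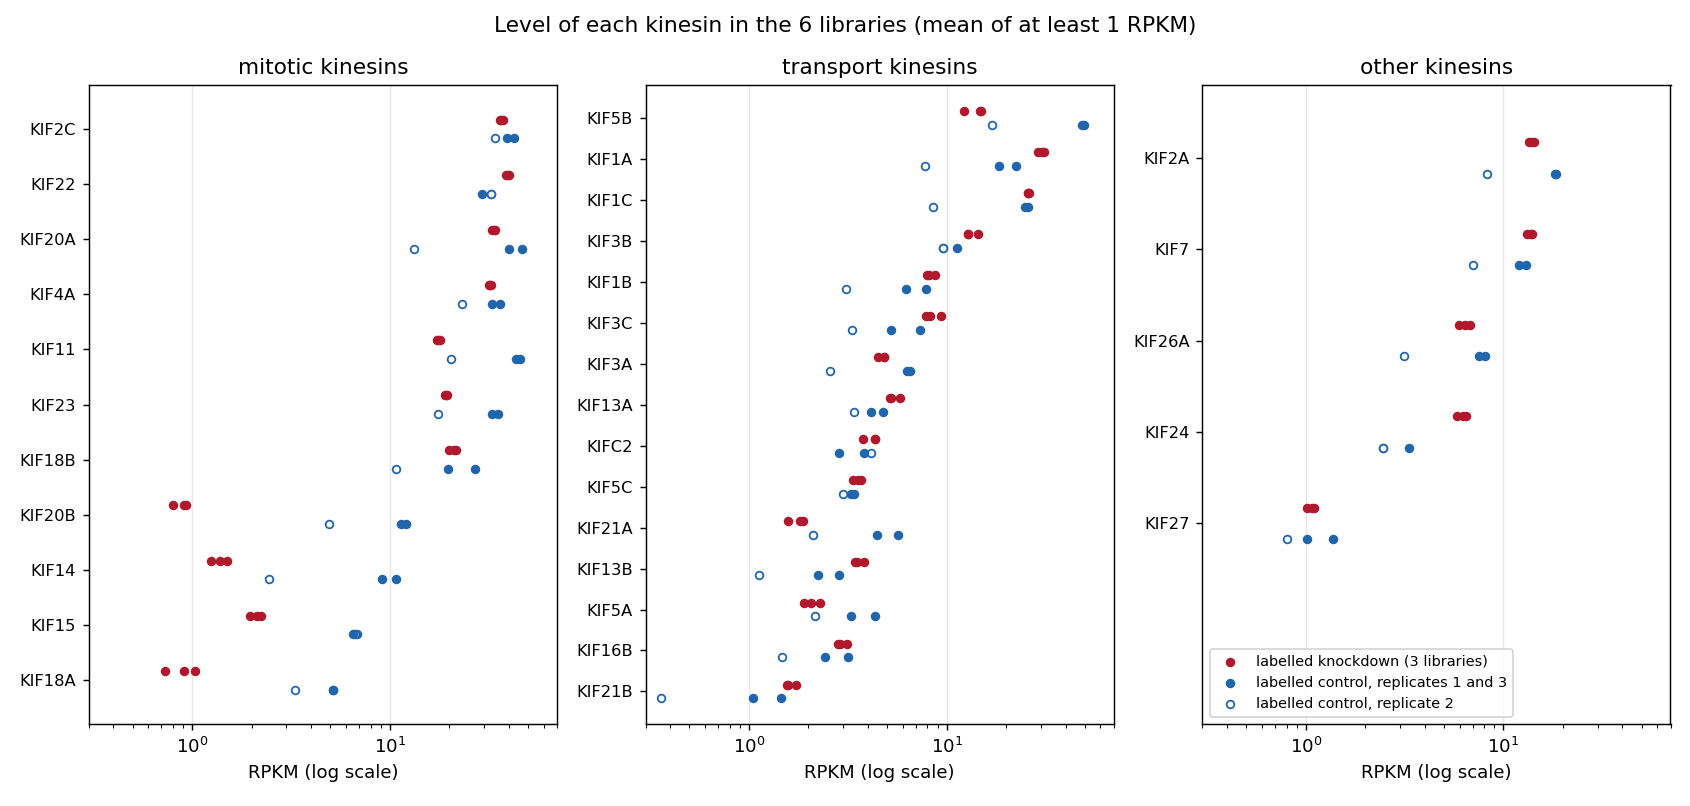
RPKM on a log axis of each kinesin that averaged 1 RPKM or more over the 6 libraries, in 3 panels by role, with 3 libraries labelled knockdown in red above and 3 labelled control in blue below, control replicate 2 as an open circle. KIF20B, KIF18A and KIF15 are among the kinesins that lie apart in the 2 groups. For most kinesins, KIF20B and KIF18A among them, control replicate 2 is the low blue point.

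Among transport kinesins the reductions fell on KIF5B, KIF21A and KIF5A. KIF5B, the conventional kinesin heavy chain of most cell types (ENSG00000170759), had 12.24, 14.90 and 14.80 RPKM in the libraries labelled knockdown, against 48.34, 16.93 and 49.54 RPKM in those labelled control. The groups did not overlap, but control replicate 2 was close to the libraries labelled knockdown. Its log2 fold change was -1.58 ± 0.32 (adjusted p = 0.015, edgeR) and -0.72 ± 0.26 with the trends removed (adjusted p = 0.0953, edgeR). KIF21A, which restrains microtubule growth at the cell cortex (ENSG00000139116), had 1.57, 1.87 and 1.81 RPKM in the libraries labelled knockdown, against 4.43, 2.10 and 5.66 RPKM in those labelled control. Again control replicate 2 was the closest to them. KIF21A had a log2 fold change of -1.35 ± 0.27 (adjusted p = 0.0148, edgeR), and -0.83 ± 0.18 with the trends removed (adjusted p = 0.0243, edgeR).

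KIF5A, a conventional kinesin heavy chain best known from neurons (ENSG00000155980), had 2.30, 1.91 and 2.06 RPKM in the libraries labelled knockdown, against 3.28, 2.17 and 4.36 RPKM in those labelled control. Here the groups overlapped, since control replicate 2 lay below knockdown replicate 1. KIF5A had a log2 fold change of -0.79 ± 0.20 (adjusted p = 0.0284, edgeR) and -0.97 ± 0.15 with the trends removed (adjusted p = 0.00925, edgeR). Each of these 3 calls was lost without any single library labelled knockdown or without control replicate 1 (adjusted p 0.0621 to 0.122, edgeR). In these fits 1191 to 2044 of all genes were called, against 4267 as fitted. Without control replicate 2 all 3 were called, KIF5B at a log2 fold change of -1.88, KIF21A at -1.59 and KIF5A at -0.93.

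14 transport kinesins did not pass, with log2 fold changes from -0.44 to 0.76. KIF1A, a motor of synaptic and dense-core vesicles, had 30.23, 29.12 and 31.00 RPKM in the libraries labelled knockdown, against 18.40, 7.81 and 22.55 RPKM in those labelled control. The groups did not overlap, and the log2 fold change was 0.76 ± 0.29 (adjusted p = 0.0941, edgeR). By DESeq2 (adjusted p = 0.0414) and without control replicate 2 (0.49; adjusted p = 0.0016, edgeR) it was called higher. KIF1C, which carries vesicles and RNA, had 25.84, 25.79 and 26.09 RPKM in the libraries labelled knockdown, against 24.96, 8.55 and 25.93 RPKM in those labelled control. These levels are close together apart from control replicate 2, and the log2 fold change was 0.26 ± 0.31 (adjusted p = 0.564, edgeR).

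The heterotrimeric KIF3 motor, which builds cilia and carries vesicles, showed no call. KIF3B, one of its motor subunits, had 14.47, 12.76 and 12.90 RPKM in the libraries labelled knockdown, against 9.59, 9.59 and 11.34 RPKM in those labelled control (log2 fold change 0.22 ± 0.13; adjusted p = 0.246, edgeR). KIF3A, its partner, had 4.52, 4.82 and 4.85 RPKM in the libraries labelled knockdown, against 6.30, 2.58 and 6.50 RPKM in those labelled control (adjusted p = 0.511, edgeR). The KIF3B groups did not overlap and the KIF3A groups did. Without control replicate 2 KIF3B (0.29) and KIF3C (0.37) were called higher and KIF3A lower (-0.51). KIF3A turned direction when composition and length trends were removed as well (0.22 ± 0.07; adjusted p = 0.0212, edgeR).

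KIF24 was the only one of the 11 other kinesins called, and it was higher. KIF24, which works at centrioles with CP110 to hold back cilium formation (ENSG00000186638, chromosome 9), had 6.50, 6.22 and 5.81 RPKM in the libraries labelled knockdown, against 2.45, 2.46 and 3.33 RPKM in those labelled control. All libraries labelled knockdown were above all controls, and control replicate 2 was no lower than control replicate 1. KIF24 had a log2 fold change of 1.0 ± 0.15 (adjusted p = 0.00507, edgeR), 1.99-fold higher, and 0.79 ± 0.13 with the trends removed (adjusted p = 0.0105, edgeR). It was called higher under all 19 alternative settings. The median log2 fold change of protein-coding genes was 0.28 on its chromosome 9, 0.31 on chromosome 11 (KIF18A) and -0.29 on chromosome 3 (KIF15). The largest medians in size were -0.50 on chromosome 14 (KIF26A) and 0.53 on chromosome 16 (KIF22). Of the partner genes described below, KTN1 and ACTR10 lie on chromosome 14 and NUMA1 and MAPK8IP1 on chromosome 11. The part of the chromosome in all these values was not tested.

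Of the 3 other kinesins with the highest levels that were not called, KIF2A, a microtubule depolymerase of spindle poles and neurons, had 14.30, 13.92 and 13.50 RPKM in the libraries labelled knockdown, against 18.34, 8.23 and 18.50 RPKM in those labelled control. KIF7, a regulator of Hedgehog signalling at the tip of the cilium, had 13.89, 13.22 and 13.81 RPKM in the libraries labelled knockdown, against 11.97, 7.0 and 13.03 RPKM in those labelled control. KIF26A, an atypical kinesin known to lack motor activity, had 5.97, 6.37 and 6.79 RPKM in the libraries labelled knockdown, against 7.53, 3.13 and 8.05 RPKM in those labelled control. Control replicate 2 was the lowest control in all 3. Without it KIF2A (-0.47) and KIF26A (-0.36) were called lower (adjusted p = 0.00062 and 0.00718, edgeR). Log2 fold changes of the 10 members not called ran from -0.28 to 1.06.

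**Figure D3:**
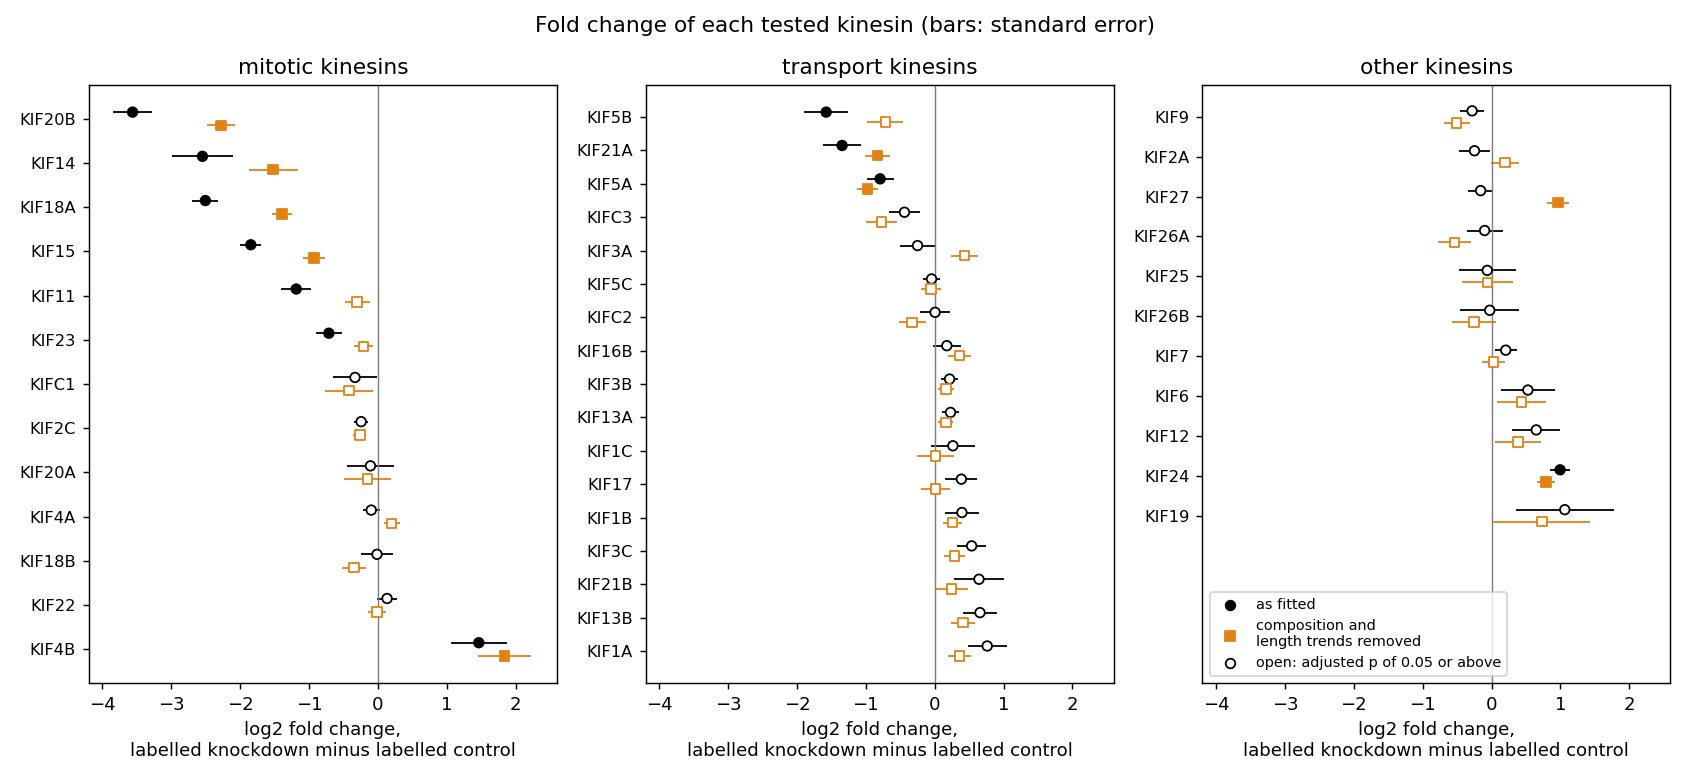
Log2 fold change (labelled knockdown minus labelled control, bars for the standard error) of each tested kinesin in 3 panels by role, as fitted in black circles and with composition and length trends removed in orange squares; open symbols have an adjusted p of 0.05 or above. KIF20B, KIF14, KIF18A and KIF15 stay filled on the left in both fits, whereas KIF11, KIF23 and KIF5B are open in the second.

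Members were also counted whose 3 RPKM values in one group all lay outside those of the other. 7 kinesins lay wholly below (18.3% of all genes tested did) and 14 wholly above (32.2% of all genes did), and 20 overlapped. Here more kinesins lay above than below, unlike in the calls of the test, and both shares of the family were near those of all genes. Of the mitotic kinesins 5 lay below and 2 above, of the transport kinesins 2 below and 8 above, and of the others 0 below and 4 above. Summed over the members, mitotic kinesins reached 205.0 to 205.8 RPKM in the libraries labelled knockdown and 169.5 to 291.1 RPKM in those labelled control. Transport kinesins summed to 128.5 to 132.3 RPKM in the libraries labelled knockdown and to 70.35 to 161.5 RPKM in those labelled control. The sums of the control libraries spread so far that they enclosed those of the other group. In bulk RNA, fewer cells in mitosis and less RNA per cell cannot be told apart.

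Ratios within a library do not depend on scaling between libraries. 16 pairs of kinesins of the same family number were compared by the ratio of their length-scaled counts, and in 11 (68.8%) the groups did not overlap, beside 57.7% of all 820 pairs of tested kinesins. With 3 libraries in each group an exact two-sided permutation test cannot go below p = 0.1, and these 11 stood at that value (adjusted over the 16 pairs 0.145), so none passes 0.05. KIF20A over KIF20B was 42.8, 37.0 and 35.3 in the libraries labelled knockdown, against 3.52, 2.68 and 3.85 in those labelled control. KIF18A over KIF18B was 0.0344, 0.0519 and 0.0422 in the libraries labelled knockdown, against 0.260, 0.310 and 0.191 in those labelled control. KIF21A over KIF21B was 0.901, 1.21 and 1.16 in the libraries labelled knockdown, against 4.23, 5.79 and 3.90 in those labelled control. Control replicate 2 lay beside the other controls in these 3 ratios, in contrast to its levels. The differences on the log2 scale were 3.53, -2.56 and -2.08. The paired genes differed in A content of the longest transcript. It was 28.4% and 38.7% for KIF20A and KIF20B, 35.5% and 21.2% for KIF18A and KIF18B, and 32.3% and 20.6% for KIF21A and KIF21B. With composition and length trends removed, the log2 fold changes were -0.15 and -2.28, -1.39 and -0.35, and -0.83 and 0.24, in the same order. The part of composition in these ratios was not tested.

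The conventional kinesins were also compared as shares of their sum. KIF5B made up 68.3%, 73.1% and 72.0% of the length-scaled counts of KIF5A, KIF5B and KIF5C in the libraries labelled knockdown, against 88.0%, 76.6% and 86.4% in those labelled control. KIF5C, a neuronal form, made up 18.8%, 17.5% and 18.1% in the libraries labelled knockdown, against 5.99%, 13.6% and 5.97% in those labelled control. The groups did not overlap in either share, and control replicate 2 lay nearest the libraries labelled knockdown. KIF5A made up 12.9%, 9.39% and 9.99% in the libraries labelled knockdown, against 5.97%, 9.83% and 7.61% in those labelled control, and here the groups overlapped. The level of KIF5C was 3.36, 3.57 and 3.71 RPKM in the libraries labelled knockdown and 3.29, 3.00 and 3.42 RPKM in those labelled control, and was not called (adjusted p = 0.802, edgeR).

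**Figure D4:**
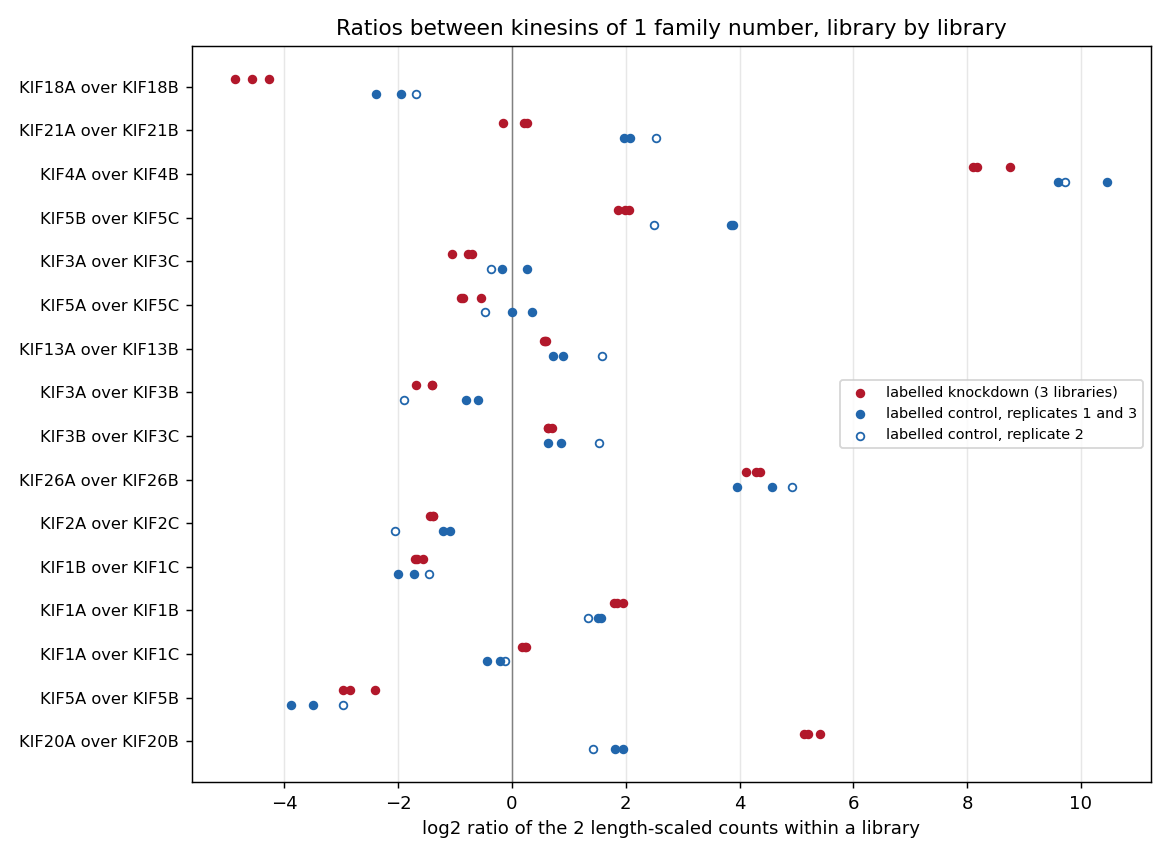
Log2 ratio of the length-scaled counts of 2 kinesins of the same family number in each library, with the libraries labelled knockdown in red above and those labelled control in blue below, control replicate 2 as an open circle. KIF20A over KIF20B and KIF18A over KIF18B show the widest gaps between the groups.

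The genes that work with kinesins were also described. CENPE, a kinesin that carries chromosomes to the spindle equator and whose symbol falls outside the rule, had 0.44, 0.53 and 0.51 RPKM in the libraries labelled knockdown, against 8.72, 4.04 and 10.42 RPKM in those labelled control. The groups lay far apart, at a log2 fold change of -4.10 ± 0.29 (adjusted p = 0.000438, edgeR), larger than that of any KIF gene. Of 22 mitotic partner genes, CENPE included, 7 were lower (31.8%, beside 14.7% of all genes) and 1 was higher (4.55%, beside 9.29%). CDK1, the kinase that starts mitosis, was lower at -1.68 ± 0.13 (adjusted p = 0.000566, edgeR) and NUMA1, which focuses spindle poles, was higher at 0.99 ± 0.13 (adjusted p = 0.00356, edgeR). With the trends removed, CENPE and CDK1 were lower (9.09%, beside 11.1% of all genes) and NUMA1 was higher (4.55%, beside 9.09%). No other partner passed in that fit. Without control replicate 2, 12 were lower and 4 higher (54.5% and 18.2%, beside 25.6% and 22.9% of all genes). Of the 10 proliferation markers 1, TOP2A, was lower (-1.26; adjusted p = 0.00932, edgeR), and it was not called with the trends removed (-0.36; adjusted p = 0.151, edgeR), without any single library labelled knockdown or without control replicate 1. When control replicate 2 was left out, 3 of the 10 were lower and 2 higher (30% and 20%, beside 25.6% and 22.9% of all genes). The 10 summed to 1062 to 1071 RPKM in the libraries labelled knockdown and 949.2 to 1112 RPKM in those labelled control, overlapping ranges.

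Among 22 light chains and cargo adaptors of kinesins 2 were lower (9.09%, beside 14.7% of all genes) and 4 were higher (18.2%, beside 9.29%). Without control replicate 2, 7 were lower and 7 higher (31.8% each, beside 25.6% and 22.9% of all genes). KTN1, the kinesin anchor kinectin of the endoplasmic reticulum, was lowest, with 1.47, 1.63 and 1.56 RPKM in the libraries labelled knockdown, against 18.74, 9.04 and 18.98 RPKM in those labelled control (-3.46 ± 0.23; adjusted p = 0.000341, edgeR). MAPK8IP2 and MAPK8IP1, scaffold proteins that tie cargo to kinesin light chains, were higher, at log2 fold changes of 1.18 ± 0.12 and 0.97 ± 0.12 (adjusted p = 0.00144 and 0.00245, edgeR). Of 29 dynein and dynactin genes, which move cargo toward minus ends, 8 were lower (27.6%) and 3 higher (10.3%). Over all genes these shares were 14.7% and 9.29%. The lean toward lower did not hold with the trends removed or without control replicate 2. In the first case 6 were lower and 6 higher (20.7% each, beside 11.1% and 9.09% of all genes). In the second 12 were lower and 11 higher (41.4% and 37.9%, beside 25.6% and 22.9% of all genes). HOOK1, an activating adaptor of dynein, was lower at -1.94 ± 0.17, DYNLT3, a light chain, at -1.86 ± 0.22 and ACTR10, a dynactin subunit, at -0.92 ± 0.16 (adjusted p = 0.000809, 0.00239 and 0.00893, edgeR). ACTR10 was not called without any single library labelled knockdown (adjusted p up to 0.0612, edgeR).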

How the data were processed

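Total RNA libraries of HEK293 cells, 3 labelled TRDMT1 knockdown and 3 labelled control, held 24776040 to 40088993 counts each. Per the labels' protocols, RNA depleted of ribosomal RNA was passed through an RNA methylation kit and made into stranded libraries; whether the counts came from treated RNA, and the aligner, strand setting and annotation, are not given in the sources used here. The deposited table holds raw read counts per gene, with RPKM made by the authors from the same counts: they equal the count scaled by exonic length and library total within 0.006 for 100% of values. Per the submitters' processing notes, the tools were edgeR 3.4.6, DESeq 1.18.0, DESeq2 1.6.3, StringTie 1, HTSeq 0.6.1 and bcl2fastq 2.17.1.14, on build hg19.

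From the counts, edgeR 4.0.16 (R 4.3.3) was fitted on all 6 libraries with TMM factors, filterByExpr and a robust quasi-likelihood F test on group alone, with Benjamini-Hochberg adjustment over the 17805 genes tested; fold changes are labelled knockdown over labelled control. Alternatives used other scalings and filters, DESeq2 1.42.0, limma 3.58.1 on log2 RPKM and voom weights, a replicate block, removal of base composition and length trends with mgcv 1.9.3 (composition known for 97.2% of genes tested), and each library left out. The steps were tested on simulated data. No label says whether replicates are separate cultures; the p-values therefore cover only variation among these libraries, perhaps technical. All pairs of libraries differed beyond sampling noise. The limit for a count of 0 covers counting error only.

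The members, their roles and the partner lists were chosen with earlier results of these data known. Named were every member called, the 3 others with the highest mean RPKM of each role, TRDMT1, CENPE and, from each list of partner genes, the 3 with the smallest p; KIF3A, KIF3C, KIF5C, KIF27, KIF4A, KIF18B, KIFC1, KIF19 and KDR were named after their values were seen. Where called members overlap exons of a gene on the opposite strand, this covers at most 3.51% of their exons.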

Additional observations from a re-analysis of the deposited data

How the results depend on the processing

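Against 4267 genes called in all, 10214 were called by voom with quality weights, 1947 with the block and trends removed, and 1191 to 9063 when 1 library was left out. Against 2 kinesins higher, 1 was called without a filter, with the 1 CPM filter, by limma on log2(RPKM + 1) and with the block, 13 by voom, and 1 to 8 with 1 library left out. Against 9 lower, 4 were called by limma with either pseudocount, 16 by voom and 3 to 14 with 1 library left out. The calls over all genes swung as well. Against 1654 higher, 2299 were called by limma on log2(RPKM + 1), 4923 by voom and 305 to 4279 with 1 library left out. Against 2613 lower, 1527 and 1530 were called by limma with the larger and smaller pseudocount, 5291 by voom and 886 to 4784 with 1 library left out. Mitotic kinesins called higher were 0 instead of 1 without a filter, with the 1 CPM filter, by DESeq2, by limma on log2(RPKM + 1), with the block and with the block and trends removed, 2 by voom, and 0 to 2 with 1 library left out; those called lower were 3 to 8 instead of 6 with 1 library left out. Transport kinesins called higher were 2 by DESeq2, 9 by voom and 0 to 4 with 1 library left out, instead of 0; those called lower were 0 by limma with either pseudocount and 0 to 4 with 1 library left out, instead of 3. Without control replicate 2 and with trends removed, a setting chosen after seeing the data, 8793 genes, 8 kinesins higher and 16 lower, and 5 transport kinesins higher and 5 lower were called, and KIF1C reversed to -0.25 and KIF3A to 0.22 (adjusted p = 0.0155 and 0.0212, edgeR). KIF27 was -0.23 without control replicate 2 alone. It reversed to 0.96 with trends removed, 0.97 with the block as well and 0.88 with trends and control replicate 2 removed. The cause was not tested. Without control replicate 2 alone 8 kinesins were higher and 14 lower, all 11 calls among them (22.9% and 25.6% of all genes). The median log2 fold changes of mitotic (-0.33) and transport kinesins (0.22) moved by less than their spread (0.35 and 0.26) under every setting. Each spread was larger than its median in size, so a median of 0 would also have counted as unmoved. Mitotic medians ran from -0.645 (without knockdown replicate 2) to -0.06 (limma on log2(RPKM + 1)), and transport medians from 0.11 to 0.39. Same-numbered libraries did not deviate together (r from -0.0397 to 0.0571). As deviations were taken from the mean of only 3 libraries in each group, this cannot tell whether the numbers pair them. With the replicate block 2976 genes and 9 kinesins were called, losing KIF23 and KIF4B. Of calls over all genes 38.8% were higher; it was 53.4% by plain library total (all-gene median 0.13) and 60.1% by limma on log2(RPKM + 1). Depth limits KIF4B, at 3 to 19 counts, and KIF19, at 1 to 25 counts.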
